A study of Homo sapiens with 16 samples.

Results

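Regions that carried H3K9me2 and H3K27me3 together in MCF-10A, and the same regions in MDA-MB-231, were examined in peak lists from chromatin immunoprecipitation and sequencing (ChIP-seq). The H3K9me2 peaks of both MCF-10A replicates were merged, and merged regions hit by both replicates were kept. The same was done for H3K27me3. A region with both marks was an H3K9me2 region on chromosomes 1 to 22 or X that overlapped an H3K27me3 region by at least 1 bp. There were 460 such regions among 6103 H3K9me2 regions (7.54%), and they overlapped 517 of 11536 H3K27me3 regions (4.48%). The regions were thus chosen by the H3K9me2 and H3K27me3 peaks of MCF-10A, and their values in those lists are given as a description.

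MDA-MB-231 is a line of breast cancer cells that the labels give as metastatic in origin, and MCF-10A is a non-tumorigenic breast epithelial line that the labels list as luminal ductal cells. Both came from laboratory stocks and were harvested before confluence, MCF-10A from medium with EGF, insulin, cholera toxin and hydrocortisone. Neither line had been given a further treatment in the labels. H3K9me2, H3K27me3 and H3K4me3 had each been profiled in 2 biological replicates per line, which gave 12 peak lists, and 4 input libraries were not analysed here. Positions are on hg19. No annotation or genome of that build was used, so no gene is named at a region and the lines were not checked against marker genes.

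H3K27me3 is laid down by the Polycomb repressive complex that contains the enzyme EZH2 or EZH1. The mark is known for keeping developmental genes silent in cells where they are not needed. H3K9me2 is laid down mainly by EHMT1 and EHMT2 and marks silent chromatin, often at the nuclear periphery. The marks are usually described as occupying largely separate parts of the genome. H3K4me3 marks promoters that are active or poised.

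The lists of the repressive marks were of unlike length. H3K9me2 had 6147 and 5045 peaks in MDA-MB-231 and 10656 and 8885 in MCF-10A, and H3K27me3 had 8470 and 30496 in MDA-MB-231 and 28896 and 28955 in MCF-10A. MDA-MB-231 replicate 1 of H3K27me3 stood apart as a short list, so values for that mark are given per replicate. The H3K4me3 lists held 15568 to 16776 peaks, and all of these numbers count peaks on chromosomes 1 to 22 and X. Without read counts in the lists the depth is unknown, and a region without a peak may carry the mark below the level that was called. Whether a mark was lost, or was present in fewer cells or at a lower level, cannot be told apart. Kept means below that a peak was called in MDA-MB-231 as well, not that 1 line came from the other.

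In MCF-10A the overlap of the marks was usually partial. The 460 regions had a median width of 2185.5 bp (quartiles 1696 and 2946 bp, range 679 to 13294 bp). The overlap with H3K27me3 had a median of 1166.5 bp, or 58.3% of the region (quartiles 38.3% and 83.8%). A single H3K27me3 region was overlapped by 404 of them, 51 overlapped 2 and 5 overlapped 3. In the median region H3K9me2 thus reached beyond the H3K27me3. H3K9me2 peaks covered 92.6% and 88.8% of all bases of the regions in MCF-10A replicates 1 and 2, and H3K27me3 peaks covered 47.3% and 48.7%. H3K27me3 peaks of both MCF-10A replicates lay on 445 of the 460 regions (96.7%), and a peak of a single replicate lay on the others. At the limit of the rule, the smallest overlaps were 3, 28, 30 and 51 bp, and the H3K9me2 regions that just missed it lay 27, 27, 42 and 55 bp from an H3K27me3 region. Only 4 regions overlapped by less than 100 bp, whereas 101 H3K9me2 regions missed by less than 1000 bp.

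The set depended on both replicates being required. It held 993 regions when MCF-10A replicate 1 was left out and 1239 when replicate 2 was. A score of at least 100 in every list left 74 regions, an overlap of at least 50% of the H3K9me2 region left 281, and lists cut to equal length left 152.

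H3K9me2 was found on 39.3% to 41.5% of the regions in MDA-MB-231. Peaks of this mark overlapped 191 regions (41.5%, exact 95% interval 37.0 to 46.2%) in MDA-MB-231 replicate 1 and 181 regions (39.3%, 34.9 to 44.0%) in replicate 2. Both replicates overlapped 143 regions (31.1%, 26.9 to 35.5%), and at least one did so in 229 (49.8%). With a score of at least 100 in every list, 16.2% of 74 regions had it in both replicates. The replicates gave nearly the same share. Where a region was hit, the cover was nearly complete, at a median of 95.8% of its bases in replicate 1 and 88.0% in replicate 2, against 96.9% and 93.8% over the 460 regions in MCF-10A replicates 1 and 2. At least 50% of the region was covered in 183 of the 191 hit regions in replicate 1 and in 162 of the 181 in replicate 2. The region edges came from the merged MCF-10A H3K9me2 peaks, so cover in MCF-10A is high by the choice of regions.

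H3K27me3 gave a different picture in MDA-MB-231. It overlapped 75 regions (16.3%, 13.05 to 20.003%) in replicate 1, the short list, and 186 regions (40.4%, 35.9 to 45.1%) in replicate 2. Both replicates overlapped 60 regions (13.04%, 10.1 to 16.5%), and these made up most of the regions hit by the short list. In the regions that were hit, these peaks covered a median of 29.0% and 34.8% of the bases, against 48.7% and 49.7% in the regions hit by MCF-10A replicates 1 and 2. The MCF-10A lists chose the regions, so these medians do not compare the lines on equal terms. With an overlap of at least 50% required throughout, 4.27% of 281 regions had H3K27me3 in both MDA-MB-231 replicates. Intervals of this kind cover counting error only, since neighbouring regions are not independent.

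Few regions had both marks in every MDA-MB-231 list. There were 37 of them (8.04%, 5.73 to 10.9%), and 168 (36.5%, 32.1 to 41.1%) had no peak of either mark in any of the 4 lists. H3K9me2 in both replicates with no H3K27me3 was found in 46 regions, and the reverse in 13. The other 196 regions had mixed combinations in which a mark was called in a single replicate. With replicate 1 of MDA-MB-231 left out, 23.7% had both marks and 43.9% had neither, and with replicate 2 left out the shares were 10.4% and 52.6%. In every setting tried, regions with neither mark outnumbered those with both. The 8.04% was nevertheless above the share in other MCF-10A regions. Among H3K9me2 regions that overlapped no H3K27me3 region called in both replicates, 55 of 5643 (0.975%) had both marks in all 4 MDA-MB-231 lists. Among H3K27me3 regions it was 40 of the 517 that overlapped an H3K9me2 region (7.74%) and 96 of the 11019 that did not (0.871%). These differences were not tested.

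**Figure D1:**
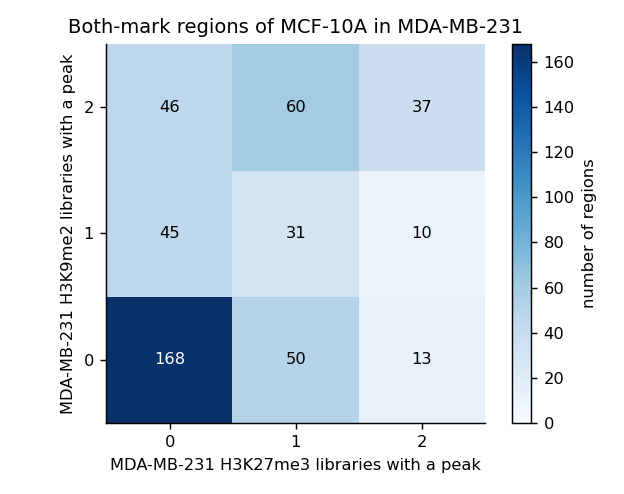
Number of the 460 both-mark regions of MCF-10A by how many MDA-MB-231 libraries (0, 1 or 2) had a peak of H3K27me3 (x axis) and of H3K9me2 (y axis). The most filled cell is the one with no peak of either mark, at 168 regions, and 37 regions had both marks in both libraries.

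The marks tended to be found on the same regions in MDA-MB-231. Of the 143 regions with H3K9me2 in both replicates, 97 (67.8%) had H3K27me3 in at least one, against 63 (27.3%) of the 231 regions with no H3K9me2. For H3K27me3 in both replicates the numbers were 37 (25.9%) and 13 (5.63%). Among H3K9me2 regions of MCF-10A without an H3K27me3 region called in both replicates the same shares were 223 of 824 (27.1%) and 147 of 4063 (3.62%). The shares were thus lower where MCF-10A had no H3K27me3 region called in both replicates. Their ratio was higher there, at 7.48 for H3K9me2 alone against 2.49 for regions with both marks. No test was made over regions. Each mark was also found more often on wider regions with both marks. Between those up to 1819 bp and those above 2579 bp, H3K9me2 in both replicates rose from 22.7% to 39.2%. For H3K27me3 it rose from 6.49% to 23.5%. On chromosomes 8 and 16, 80 of 125 regions (64%) had neither mark, against 88 of 335 (26.3%) on the other chromosomes. The part of width and chromosome in the joint presence of the marks was not tested.

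The 37 regions with both marks in all MDA-MB-231 lists were wide and high in score. Their median width was 2830 bp, against 1999.5 bp for the 168 regions with neither mark. Their peaks had a median score percentile of 90.7 and 93.5 in the MCF-10A H3K9me2 lists (replicates 1 and 2) and of 90.4 and 90.01 in the H3K27me3 lists. For the 168 regions these percentiles were 72.9 and 67.1, and 73.8 and 74.2. A score percentile is the share of peaks in the same list with an equal or lower score, and the score is the authors' own. No region was filtered here for repeated or poorly mapped sequence, and the inputs were not analysed. The part of such sequence in these scores was not tested.

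The comparison set was the 5643 H3K9me2 regions of MCF-10A that overlapped no H3K27me3 region called in both replicates. They are named as having H3K9me2 alone or only, although 641 (11.4%) overlapped an H3K27me3 peak of either MCF-10A replicate and 42 overlapped peaks of both. In MDA-MB-231 they had H3K9me2 in 22.3% (replicate 1) and 20.3% (replicate 2), so the regions with both marks averaged 40.4% ± 1.54 and those with H3K9me2 alone 21.3% ± 1.43 (SD, n = 2 libraries). Both sets were measured in the same libraries, and the difference was 19.2 percentage points in replicate 1 and 19.1 in replicate 2. The two-sided exact permutation test gave p = 0.333 with the 4 values treated as separate, and an exact sign-flip test of the within-library differences gave p = 0.5. Each is the smallest p that its test allows with 2 libraries. With a score of at least 100 in every list the difference was 9.86 points. In bases, H3K9me2 peaks of MDA-MB-231 covered 40.02% and 34.5% of the regions with both marks and 22.5% and 19.001% of those with H3K9me2 alone.

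For H3K27me3 the gap between these sets was wider in proportion. Regions with both marks had an H3K27me3 peak of MDA-MB-231 in 16.3% and 40.4%, and regions with H3K9me2 alone in 2.59% and 7.58% (replicates 1 and 2). The exact permutation p was again 0.333, and that of the within-library differences 0.5. The difference of the means was 23.3 points, 13.7 without MDA-MB-231 replicate 2, and 9.49 with an overlap of at least 50%. The ratio of the means was 5.58. Neither mark was called in 36.5% of the regions with both marks and in 69.4% of those with H3K9me2 alone.

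Set against the other H3K27me3 regions, the difference in H3K27me3 was small. Because H3K27me3 regions were narrower, the 517 that overlapped an H3K9me2 region were compared directly with the 11019 that did not. They had median widths of 1264 and 1062 bp. Of the 11019, 352 (3.19%) overlapped an H3K9me2 peak of either MCF-10A replicate. In MDA-MB-231, H3K27me3 was found on 16.1% and 36.6% of the 517 and on 13.1% and 32.3% of the 11019 (replicates 1 and 2). The means were 26.3% ± 14.5 and 22.7% ± 13.5 (SD, n = 2; two-sided exact permutation p = 0.667 with the values treated as separate). Within each library the share was higher on the 517, by 2.92 points in replicate 1 and 4.30 in replicate 2, with the exact sign-flip p at its minimum of 0.5. H3K9me2 of MDA-MB-231 was present on 39.1% and 36.4% of the 517 and on 5.51% and 4.24% of the 11019.

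**Figure D2:**
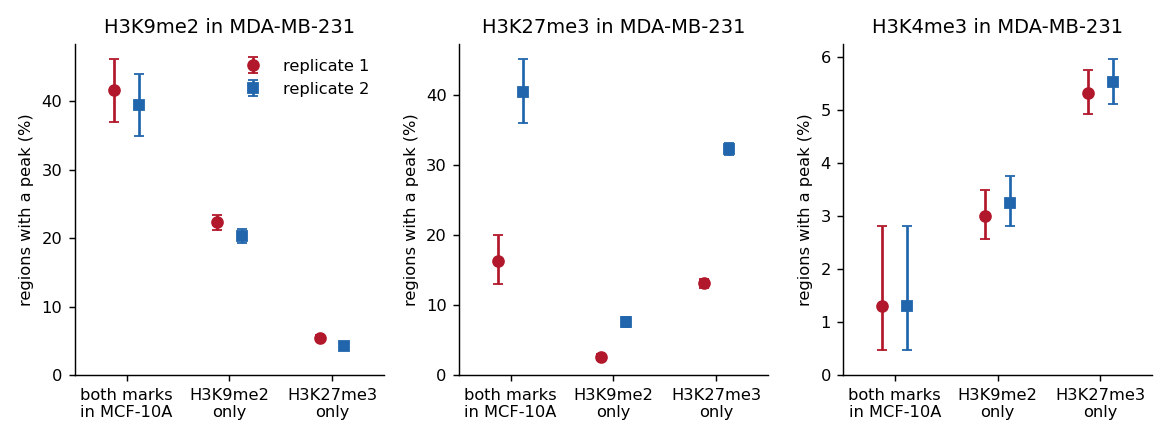
Share of regions (y axis, %) that overlapped a peak of the named mark in MDA-MB-231, for the 460 MCF-10A regions with both marks, the 5643 with H3K9me2 only and the 11019 with H3K27me3 only. Points are single libraries and bars are exact 95% intervals for counting error. Only means that no region of the other mark called in both MCF-10A replicates was overlapped. H3K9me2 was found on 41.5% and 39.3% of the regions with both marks and on 22.3% and 20.3% of those with H3K9me2 only.

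Width and score moved with this comparison. Regions with both marks had a median width of 2185.5 bp, against 1864 bp for H3K9me2 alone. Among regions up to 1819 bp wide, H3K9me2 of MDA-MB-231 replicates 1 and 2 was found on 35.1% and 29.9% of those with both marks and on 16.5% and 15.1% of those with H3K9me2 alone. Above 2579 bp the shares were 49.7% and 48.4% against 35.1% and 31.9%. In the lowest of the 3 score classes, where the lower H3K9me2 percentile in MCF-10A was at most 39.6, they were 31.8% and 31.2% against 13.0% and 12.3%. In the highest class, above 78.6, they were 49.02% and 51.6% against 40.6% and 37.8%. The regions with both marks were higher in each of the 3 width classes and each of the 3 score classes, in both replicates. The part of width and score in the remaining difference was not tested.

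**Figure D3:**
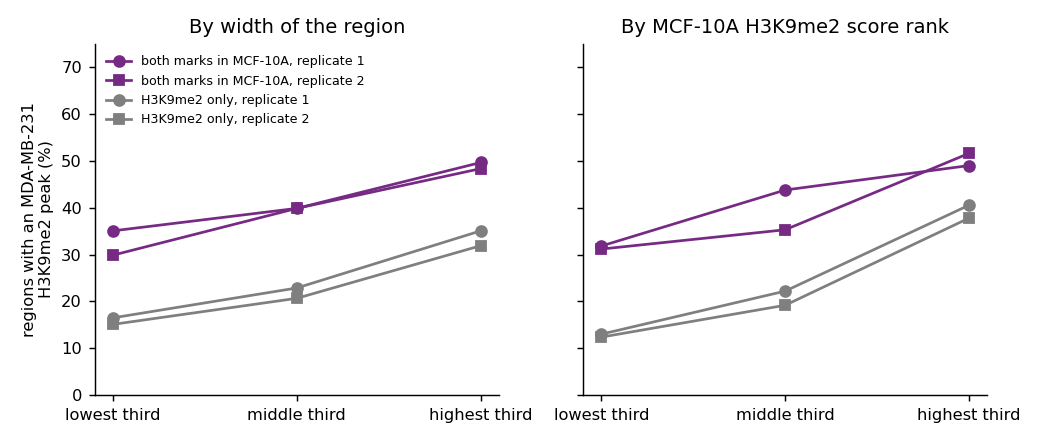
Share of regions with an H3K9me2 peak in MDA-MB-231 (y axis, %) by width class (left) and by class of H3K9me2 score rank in MCF-10A (right), each class holding 153 or 154 of the regions with both marks. Lines join the values of a replicate. Both sets rose with width and score rank, and the regions with both marks lay above those with H3K9me2 only in every class.

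The regions were unevenly spread over the chromosomes. Chromosome 8 held 90, chromosome 7 held 56, chromosome 5 held 46, chromosome 19 held 40 and chromosome 16 held 35, together 267 (58.04%), whereas these chromosomes held 39.5% of the regions with H3K9me2 alone. As a share of the H3K9me2 regions of MCF-10A, regions with both marks made up 16.2% on chromosome 19 and 12.6% on chromosome 8, against 7.54% over all and 1.64% on chromosome 4. The uneven spread thus went beyond that of H3K9me2 itself. H3K27me3, the other mark of the rule, was also unevenly spread in MCF-10A. Of its covered bases, chromosome 8 held 10.1% and 10.5%, chromosome 19 held 5.13% and 5.01%, and chromosome 4 held 2.59% and 2.47%. The part of that spread in the position of the regions was not tested.

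Among chromosomes with at least 10 regions, 8 and 16 had the largest shares without either mark in MDA-MB-231. On chromosome 8, 55 of 90 regions (61.1%) had neither mark in MDA-MB-231, and on chromosome 16 it was 25 of 35 (71.4%). On chromosome 6 it was 1 of 20 (5.0%) and on chromosome 1 it was 6 of 33 (18.2%). Over the remaining chromosomes, without 8 and 16, 26.3% of 335 regions had neither mark and 36.1% had H3K9me2 in both replicates.

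Chromosomes 8 and 16 were among the chromosomes that held a smaller share of all covered bases of both repressive marks in MDA-MB-231 than in MCF-10A. Chromosome 8 held 3.26% and 3.601% of the covered bases of H3K9me2 in MDA-MB-231, against 11.9% and 12.7% in MCF-10A. For H3K27me3 the shares on chromosome 8 were 2.63% and 2.24%, against 10.1% and 10.5%. Chromosome 16 held 0.320% and 0.523% of H3K9me2 coverage in MDA-MB-231, against 6.33% and 6.60% in MCF-10A. Such shifts were not limited to these chromosomes and went in both directions. Chromosome 13, where 5 of 6 regions had neither mark, held 0.140% and 0.261% of H3K9me2 coverage in MDA-MB-231, against 1.84% and 2.07% in MCF-10A. Chromosome 20 held 12.9% and 11.98% in MDA-MB-231, against 1.84% and 1.70% in MCF-10A. H3K4me3 differed less, with 3.59% and 3.61% in MDA-MB-231 against 3.98% and 3.90% in MCF-10A on chromosome 8. The part of these whole-chromosome differences in the state of the regions in MDA-MB-231 was not tested. Within chromosomes 8 and 16, H3K9me2 of MDA-MB-231 was still found on 24.0% and 17.6% of the regions with both marks and on 7.33% and 7.64% of those with H3K9me2 alone (replicates 1 and 2). Of 13 chromosomes with at least 10 regions, 12 had the larger share kept in both replicates among regions with both marks, and chromosome 11 did not (33.3% against 34.4%).

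**Figure D4:**
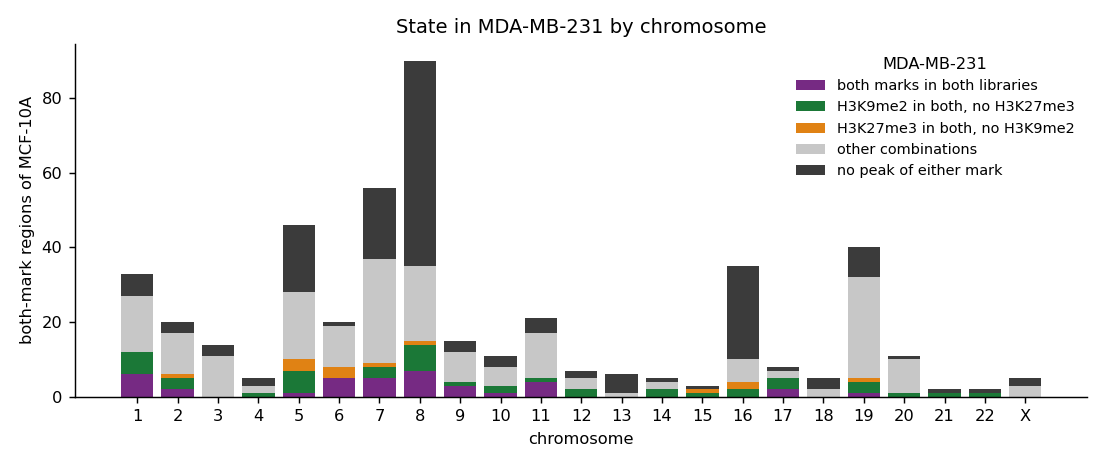
Number of the 460 both-mark regions of MCF-10A per chromosome (bar height, from 0), split by their state in MDA-MB-231. Chromosome 8 has the tallest bar, with 90 regions, of which 55 had no peak of either mark in MDA-MB-231.

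Regions were also counted in blocks of 5 Mb, from which a few are given that were picked for their values. On chromosome 8 the block from 20000001 to 25000000 held 9 regions, and all 9 had neither mark in MDA-MB-231. The block from 140000001 to 145000000 held 17 regions, of which 2 had neither mark, 11 had H3K9me2 in both replicates and 5 had both marks in both. The block from 130000001 to 135000000 of chromosome 5 also held 17, of which 3 had neither mark and none had both. On chromosome 1 from 145000001 to 150000000, 8 of 9 regions kept H3K9me2 in both replicates.

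Most regions stood alone. With a gap of at most 50 kb joining neighbours, 312 regions had no other near them and 148 (32.2%) lay in clusters. The share with a neighbour of the same kind was 38.1% for H3K9me2 alone, a set with more members. The largest clusters had 7 regions. One spanned 35.2 kb on chromosome 6 from 161033549 to 161068778, where H3K9me2 covered 43.6% and 25.9% of the span in MDA-MB-231 against 85.2% and 84.6% in MCF-10A. For H3K27me3 the covered share of the span was 17.4% and 29.9% in MDA-MB-231 against 68.4% and 58.7% in MCF-10A. All 7 regions had a peak of at least one mark in MDA-MB-231, and 2 had both marks in both replicates.

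The other cluster of 7 was sparser. It spanned 173.3 kb on chromosome 5 from 132979898 to 133153199, and the share covered by H3K9me2 was 7.62% and 2.93% in MDA-MB-231 against 11.2% and 12.8% in MCF-10A. None of its regions had both marks in both MDA-MB-231 replicates. Next in size were 4 clusters of 5 regions each, in which 5, 3, 5 and 1 regions kept H3K9me2 in both MDA-MB-231 replicates. The first, on chromosome 1 from 148901635 to 148948165, kept it in all 5, with 63.2% and 52.6% of the span covered by H3K9me2 in MDA-MB-231 against 34.2% and 44.5% in MCF-10A. There H3K27me3 covered 2.79% and 22.4% in MDA-MB-231 against 68.2% and 65.6% in MCF-10A. In that cluster H3K9me2 covered more in both MDA-MB-231 replicates than in both MCF-10A replicates, and H3K27me3 covered less. The last, on chromosome 8 from 6837342 to 6879089, kept it in 1 and had neither mark in 3, and H3K9me2 covered 8.62% and 3.28% of the span in MDA-MB-231 against 42.99% and 40.8% in MCF-10A.

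The 10 regions with the highest scores in the MCF-10A lists came from 5 chromosomes, and 9 of them had a repressive mark in MDA-MB-231. Over all 460 regions, 168 (36.5%) had neither mark there. The 10 were ranked by the lowest of their 4 score percentiles, in the lists that also chose the regions. Some of the 10 lay in the same cluster and are not independent. The first, on chromosome 1 from 2583317 to 2588839, was covered by H3K9me2 at 99.5% and 99.1% in MDA-MB-231 and at 100% and 98.6% in MCF-10A. H3K27me3 covered it at 82.998% and 79.4% in MDA-MB-231 and at 93.0% and 82.9% in MCF-10A. The next, on chromosome 7 from 100641089 to 100647692, was as evenly covered, with H3K27me3 at 90.9% and 82.6% in MDA-MB-231 and at 88.0% and 88.5% in MCF-10A. These 2 regions were also the 2 highest by score in MDA-MB-231, in the other order. Its neighbour from 100636874 to 100641060 likewise had both marks in all 8 lists, with H3K9me2 over 81.2% and 73.9% in MDA-MB-231 and 81.6% and 99.1% in MCF-10A.

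Ranks 3 to 10 included regions that diverged between the lines. On chromosome 8 from 6856070 to 6860794, H3K9me2 covered 92.4% and 81.9% and H3K27me3 93.4% and 98.96% in MCF-10A, and no peak of either mark was called in MDA-MB-231. On chromosome 7 from 106270665 to 106273633, H3K9me2 was listed at 0% in MDA-MB-231 against 98.6% and 97.7% in MCF-10A, and H3K27me3 covered 8.86% and 45.3% against 66.2% and 79.5%. In MDA-MB-231 that region had a smaller H3K27me3 cover and no H3K9me2 peak. On chromosome 11 from 3674742 to 3676360 the MDA-MB-231 replicates disagreed for H3K9me2, at 100% and 0%, against 100% and 98.95% in MCF-10A, while H3K27me3 covered 67.1% and 99.4% against 90.9% and 88.5%. The remaining ranked regions were on chromosome 1 at 148901635 and in the cluster of chromosome 6 (3 regions), with peaks of both marks in at least 1 MDA-MB-231 library each.

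**Figure D5:**
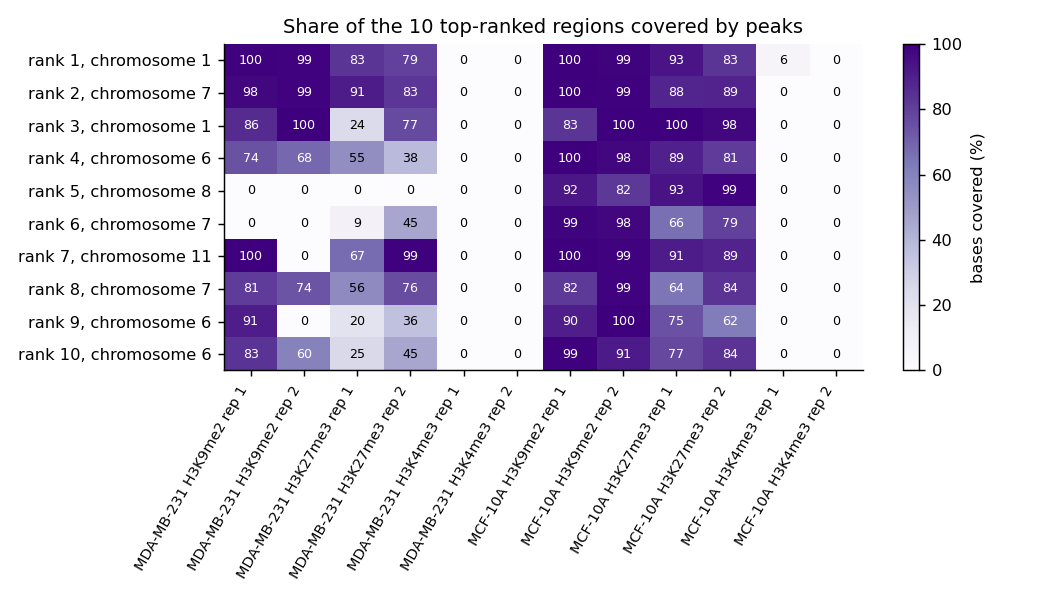
Share of bases covered by peaks (colour and numbers, %) in each of the 12 libraries for the 10 regions with the highest MCF-10A scores, in rank order. The region of rank 5, on chromosome 8, is at 0 in every MDA-MB-231 library, while those of ranks 1 and 2 are covered by both repressive marks in all 8 lists.

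Regions with both marks and high scores in MDA-MB-231 were not all high in MCF-10A. On chromosome 6 from 370691 to 372797, both lines were covered by both marks, with H3K9me2 at 95.4% and 82.7% in MDA-MB-231 and at 94.9% and 90.7% in MCF-10A. Its lowest score percentile was 97.6 in the MDA-MB-231 lists and 57.9 in the MCF-10A lists. On chromosome 11 from 93967040 to 93972826 these percentiles were 96.1 in MDA-MB-231 and 31.0 in MCF-10A. The region on chromosome 17 from 36284079 to 36286411 was covered by H3K27me3 at 94.7% and 100% in MDA-MB-231 and at 81.9% and 66.7% in MCF-10A. Percentiles come from lists of different lengths and show no change of level.

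In 4 of the 5 widest regions H3K27me3 regions of MCF-10A overlapped 7.86% to 30.9% of the width, and in the other 49.6%. The widest of all, on chromosome 8 from 86737484 to 86750777, spanned 13294 bp and had H3K9me2 over 51.2% and 49.8% in MDA-MB-231 against 53.7% and 100% in MCF-10A. H3K27me3 covered 19.5% and 30.5% in MDA-MB-231 and 28.5% and 30.9% in MCF-10A, and this region kept both marks in all 8 lists. On chromosome 2 from 87639041 to 87649823, H3K9me2 covered 80.3% and 0% in MDA-MB-231 against 98.7% and 99.8% in MCF-10A. On chromosome 2 from 91777679 to 91788010, H3K27me3 covered 0% and 39.5% in MDA-MB-231 against 10.1% and 7.68% in MCF-10A. In both of the chromosome 2 regions the MDA-MB-231 replicates differed.

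H3K4me3, which played no part in choosing the regions, was rare on them. It overlapped 6 and 6 of the 460 regions in MDA-MB-231 (1.304% each) and 8 and 13 in MCF-10A (1.74% and 2.83%). The difference of −0.98 percentage points had a two-sided exact permutation p of 0.333, the smallest possible. Over the same 460 regions it was −1.52 points without MCF-10A replicate 1 and −0.43 points without replicate 2. On regions with H3K9me2 alone the shares were higher in each line, at 3.01% and 3.26% in MDA-MB-231 and 3.44% and 3.70% in MCF-10A. On those with H3K27me3 alone they were 5.34% and 5.54% in MDA-MB-231 and 2.76% and 3.99% in MCF-10A. The median distance to the nearest H3K4me3 region called in both replicates was 106.3 kb in MDA-MB-231 and 101.4 kb in MCF-10A, against 99.6 and 98.0 kb for H3K9me2 alone. Within 10 kb of a region such H3K4me3 was found for 6.52% of the regions in MDA-MB-231 and 6.09% in MCF-10A. The same shares were 7.73% and 7.78% for H3K9me2 alone and 8.38% and 7.16% for H3K27me3 alone. H3K4me3 was thus uncommon near these regions in both lines, as it was near both comparison sets.

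Few regions had H3K4me3 in both replicates of one line and in none of the other. The region on chromosome 13 from 78491842 to 78493395 had H3K4me3 over 55.5% and 45.2% in MDA-MB-231 and none in MCF-10A. It had no repressive peak in MDA-MB-231, whereas H3K9me2 covered 73.0% and 100% and H3K27me3 39.7% and 57.3% of it in MCF-10A. It was the only one with H3K4me3 in both MDA-MB-231 replicates and in neither MCF-10A replicate. The reverse was found in 3 regions. One lay on chromosome 5 (140306744 to 140308236), the next on chromosome 16 (33236932 to 33241313) and the last on chromosome 19 (16044507 to 16045185). On the chromosome 16 region the H3K4me3 peaks of the MCF-10A replicates did not overlap each other and lay 3104 bp apart, at score percentiles of 3.12 and 4.04 in their lists, so no H3K4me3 region called in both replicates lay on it. The chromosome 5 region had no peak of any mark in MDA-MB-231, and the other 2 kept H3K9me2 in both MDA-MB-231 replicates without H3K4me3.

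The surroundings of the regions were compared for H3K4me3 in windows of 250 kb. Coverage was scaled to each library's total (covered bp per Mb of covered bases, bp/Mb) and tested with limma on log2 of this value plus 10 bp/Mb, with Benjamini-Hochberg adjustment over all 6092 windows. The regions fell into 340 windows, of which 213 had H3K4me3 in at least 2 of the 4 libraries and could be tested, and 111 had none in any library. Of the 213, 26 (12.2%) had more H3K4me3 in MDA-MB-231 and 26 (12.2%) had less. Over all windows 11.6% were higher and 10.3% lower, so both shares around the regions were near those of all windows in this fit. The median log2 ratio, MDA-MB-231 over MCF-10A, was −0.056 in these windows and 0.0010 in all. The counts fell to 14 and 12 higher without MDA-MB-231 replicate 1 and 2, to 17 higher and 16 lower without MCF-10A replicate 1, and to 17 lower without MCF-10A replicate 2. The higher calls were then 6.76% and 5.85% of the windows around the regions and 5.92% and 6.28% of all windows without MDA-MB-231 replicate 1 and 2, and 8.25% and 8.60% without MCF-10A replicate 1. The lower calls were 7.77% around the regions and 4.55% over all windows without MCF-10A replicate 1, and 8.33% and 4.86% without MCF-10A replicate 2. The share of lower calls around the regions was above that of all windows in every setting tried, by unlike amounts. It was 14.1% against 10.4% with the replicate number as a block, and 9.86% against 8.68% with unscaled coverage. This difference was not tested.

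The windows with the smallest p in each direction are given as a description. On chromosome 19 from 41500001 to 41750000, which held 4 of the regions, H3K4me3 coverage in MDA-MB-231 was 223 and 222 bp/Mb, whereas in MCF-10A it was 44.3 and 44.7 bp/Mb. The log2 ratio was 2.09 with a standard error of 0.0842 (adjusted p = 0.000853 by limma). On chromosome 3 from 128000001 to 128250000 the MDA-MB-231 libraries had 187.1 and 193.2 bp/Mb and those of MCF-10A 57.2 and 48.3 bp/Mb, a log2 ratio of 1.68 (adjusted p = 0.00164 by limma). In the other direction, the window on chromosome 5 from 140250001 to 140500000 had no H3K4me3 listed in either MDA-MB-231 library (0) and held 243.7 and 252.7 bp/Mb in MCF-10A (limma adjusted p = 0.000853). It contains the chromosome 5 region above that carried all 3 marks in MCF-10A and none in MDA-MB-231. Also listed at 0 in MDA-MB-231 were the windows 172750001 to 173000000 of chromosome 5, with 167.0 and 159.6 bp/Mb in MCF-10A, and 21750001 to 22000000 of chromosome 15, with 119.2 and 100.2 bp/Mb. On chromosome 5 from 173750001 to 174000000 it was the reverse, with 41.1 and 50.3 bp/Mb in MDA-MB-231 and 0 in MCF-10A.

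The same definition applied to MDA-MB-231 gave 439 regions with both marks, from 3074 H3K9me2 regions in both of its replicates. Of these, 37 (8.43%) overlapped a region with both marks in MCF-10A, and 39 of the 460 MCF-10A regions (8.48%) overlapped one of them. Regions with both marks made up 14.3% of the H3K9me2 regions in MDA-MB-231 and 7.54% in MCF-10A. Most such regions of each line did not overlap one of the other. Regions with a single mark in MCF-10A also mostly lacked that mark in MDA-MB-231. Both MDA-MB-231 replicates had H3K9me2 on 14.6% of those with H3K9me2 alone, and H3K27me3 on 9.68% of those with H3K27me3 alone.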

How the data were processed

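Per the labels, peaks came from ChIP-seq libraries of cell cultures sequenced as paired-end reads, and per the submitters' processing notes CASAVA 1.6, Bowtie2, MACS 1.4, bedtools and hg19 were used, with their roles and settings and the use of inputs not given in those notes. The labels' protocol says that replicates were combined for further analyses, but each list here is from 1 replicate. Each deposited list gives chromosome, start, end, name and the authors' own score per peak, at least 50 in every list. Its scale is not stated, so peaks were compared by score within their own list alone. Positions count from 1.

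Intervals were joined and compared with Python 3.11.15, NumPy 2.4.6, pandas 2.3.3 and SciPy 1.17.1, windows with limma 3.58.1 (trend, empirical Bayes, threshold 0.05) in R 4.3.3, and figures with matplotlib 3.10.9. The interval code and the limma step were tested on simulated data. Named regions were the 10 highest by the lowest score percentile in MCF-10A, up to 10 so ranked among those with both marks in MDA-MB-231, up to 5 per line with H3K4me3 in that line alone, the 5 widest, 3 clusters with most regions (the third one tied with 3 others) and the 3 windows with the smallest p per direction. Not all of these are described. The 5 Mb blocks and the chromosome 8 cluster were chosen after their values were seen. The regions, comparison sets and rules were chosen with earlier results of these data known. P-values between sets of regions rest on the 2 MDA-MB-231 libraries alone, and those between lines on the 2 replicates per line. The labels call these replicates biological. The limma p-values also draw on the variance over all windows. Peaks on Y and unplaced sequence were left out.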

Additional observations from a re-analysis of the deposited data

Results flagged for a closer look

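Outside chromosomes 1 to 22 and X, the same definition gave 8 regions with both repressive marks in MCF-10A, among 24 H3K9me2 regions found there in both replicates (33.3%), against 460 of 6103 (7.54%) on the chromosomes used. The difference was not tested. Of the 8, 2 had H3K9me2 and 1 had H3K27me3 in both MDA-MB-231 replicates. They lie on sequence that no comparison above used.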

How the results depend on the processing

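The direction of the differences from H3K9me2-only regions held in every alternative, at 9.86 to 23.6 percentage points for H3K9me2 and 9.49 to 32.9 for H3K27me3. The numbers and shares moved more. A score of at least 100 left 74 regions, with H3K9me2 kept in both MDA-MB-231 replicates in 16.2%, H3K27me3 in 9.46%, both in 5.41% and neither mark in 48.6%. An overlap of at least 50% left 281, with H3K27me3 kept in 4.27%, both in 3.20% and neither in 49.1%. Equal list lengths left 152, with H3K9me2 kept in 38.8% and both in 11.2%. Without chromosomes 8 and 16, chosen after seeing the data, H3K9me2 was kept in 36.1% and neither mark found in 26.3%. The H3K4me3 difference on the regions was 0 with a score of at least 100 and with an overlap of at least 50%.

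Leaving out 1 replicate gave 460 to 1239 regions, H3K9me2 kept in 22.4 to 41.5%, H3K27me3 in 8.39 to 40.4%, both in 4.36 to 23.7%, neither in 43.9 to 52.6%, and an H3K4me3 difference of −0.98 to 0 points. Leaving out an MCF-10A library chose the regions again, which gave the 0, whereas on the 460 regions the difference was −1.52 to −0.43, an alternative chosen after seeing the data. Windows numbered 12 to 26 higher and 16 to 29 lower, each lone library being assumed to vary like the others. Windows of 1 Mb gave 50 of 272 higher (18.4%, against 17.9% of all windows) and 61 lower (22.4%, against 17.1% of all). Causes were not tested. With the replicate number as a block 26 windows were higher (12.2%, against 12.1% of all) and 30 lower (14.1%, against 10.4%). No named window lost its call. Same-numbered libraries had a correlation of deviations of 0.116, and the labels do not say that they share a culture. The named windows kept direction and call in all 52 alternatives that gave a value. Leaving out a replicate of the line with peaks gave none for the 4 windows listed at 0 in the other line, and windows of 1 Mb gave none for single windows. The unknown depth and the short H3K27me3 list of MDA-MB-231 replicate 1 limit what a missing peak shows.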
